A study of Homo sapiens with 6 samples.

Results

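The S100 family is a group of small calcium-binding proteins of vertebrates, and 10 of its genes were followed here in RNA-seq libraries of a human adrenocortical carcinoma line. The members, S100A1, S100A2, S100A3, S100A4, S100A6, S100A10, S100A11, S100A13, S100A16 and S100B, were taken by name from a table of 57341 named genes that holds 21 S100 genes in all. The study compared parental H295R cells, a steroid-producing line derived from an adrenocortical carcinoma, with H295R-PM-Ptc+, a subpopulation of the same line sorted by flow cytometry for the Hedgehog receptor Patched (Ptch1) at the plasma membrane and then grown. Each group had 3 libraries of polyA RNA, numbered 1 to 3 in both groups, and the cells had received no treatment. Both groups were grown in the same medium, DMEM/F12 with NuSerum and ITS, and neither carries a transgene or a deletion. The H295R-PM-Ptc+ cells are therefore a sorted and grown fraction of 1 line, and nothing in the labels says that the 3 libraries of a group came from separate cultures, so p-values measure only the spread between these libraries.

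The gene that defines the sort went against the labels. PTCH1 had 441, 559 and 579 counts in each H295R-labelled library and 248, 326 and 319 in the H295R-PM-Ptc+-labelled ones. It was lower in the latter by edgeR's quasi-likelihood test, with a log2 fold change of -0.81 (SE 0.147, n = 3 per group, adjusted p = 0.0207), and the call was lost without H295R library 2, H295R library 3 or H295R-PM-Ptc+ library 2, where the log2 fold change was -0.78, -0.74 and -0.86 and the adjusted p 0.0799, 0.0921 and 0.0618. With the replicate number as a block the adjusted p was 1.72e-06, and by DESeq2 7.09e-05. The study's supplementary table of normalised values carries the same library columns under exchanged group names, and the counts alone cannot tell which naming is right. Every direction below is therefore given for the libraries as labelled in the deposited table, and every difference between the groups would be reversed under the exchanged names. Library totals ranged from 23264403 to 25813247 counts. Of 12 adrenocortical genes listed as markers, 11 passed the filter on low counts, and their summed level was 1780 to 2230 CPM (counts scaled to the library's size, per 1000000) in the H295R-labelled libraries and 2170 to 2370 CPM in the H295R-PM-Ptc+-labelled ones.

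S100 proteins work mostly as dimers, each subunit with a pair of calcium-binding loops of the EF-hand type, and calcium opens a surface that grips a target protein. They have no enzyme activity of their own and act by holding annexins, myosins, scaffold proteins or, once outside the cell, receptors. S100A10 is the exception of the family: its loops have lost calcium binding, and it sits constitutively in a complex with annexin A2 at the membrane. Most of the genes stand in a cluster on the long arm of chromosome 1, band 1q21, beside the genes of the epidermal differentiation complex, while S100B lies on chromosome 21.

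The C-terminal calcium-binding loop, a stretch of 12 codons, is a sequence in which S100A10 differs from the other members, and the N-terminal loop was not compared. It is shown for the pair of tested members with the largest fold change between the groups, for the most abundant member and for S100B, whose gene lies outside the cluster. The sequences are those of the coding strand in hg38, read 5′ to 3′ with the canonical GENCODE transcript, and the capitals mark codons 1, 3, 5 and 12 of the loop, which hold the calcium-coordinating positions.
S100A10: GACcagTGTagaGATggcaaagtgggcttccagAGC
S100A11: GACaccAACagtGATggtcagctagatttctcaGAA
S100A6: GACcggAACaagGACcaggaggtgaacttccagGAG
S100B: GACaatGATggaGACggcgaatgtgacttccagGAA
These loops lie in single coding exons at chr1:151983244-151983279, chr1:152032743-152032778, chr1:153534753-153534788 and chr21:46599423-46599458, all on the minus strand. The loop pattern, with acidic residues encoded by codons 1 and 12, was present in 9 of the 10 members. S100A10 lacked it, with TGT as the third codon and AGC as the twelfth. Among 1049 canonical human coding sequences of 80 to 130 codons, 25 (2.38%) held the pattern. The members' coding sequences were 47.9% (S100A3 with S100A13) to 69.3% (S100A2 with S100A4) identical, and S100A10 shared 53.3% of aligned bases with S100A11.

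S100A6 dominated the family in both groups. Compared per length, as CPM per kb of exon, S100A6 stood at 110 ± 22.0 (SD, n = 3) in the H295R-labelled libraries and 122 ± 14.9 (SD, n = 3) in the H295R-PM-Ptc+-labelled ones. S100A4 was second in both, at 8.55 ± 1.76 and 11.4 ± 2.57 CPM per kb. In the H295R-labelled libraries the order went on with S100A13 at 1.22, S100A2 at 0.58, S100A10 at 0.473 and S100A16 at 0.167 CPM per kb, and only S100A2 and S100A10 overlapped among these neighbours. In the H295R-PM-Ptc+-labelled libraries, S100A10 came before S100A13, at 4.76 CPM per kb, and S100A13 at 1.53 overlapped with S100A11 at 1.51, followed by S100A2 at 0.773 and S100A16 at 0.231. S100A10 was thus the fifth member in one group and the third in the other. S100A6 supplied 88.0% to 88.9% of the members' counts in the H295R-labelled libraries and 80.3% to 83.7% in the others, and the 10 members made up 0.0103% to 0.0173% of a library.

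**Figure D1:**
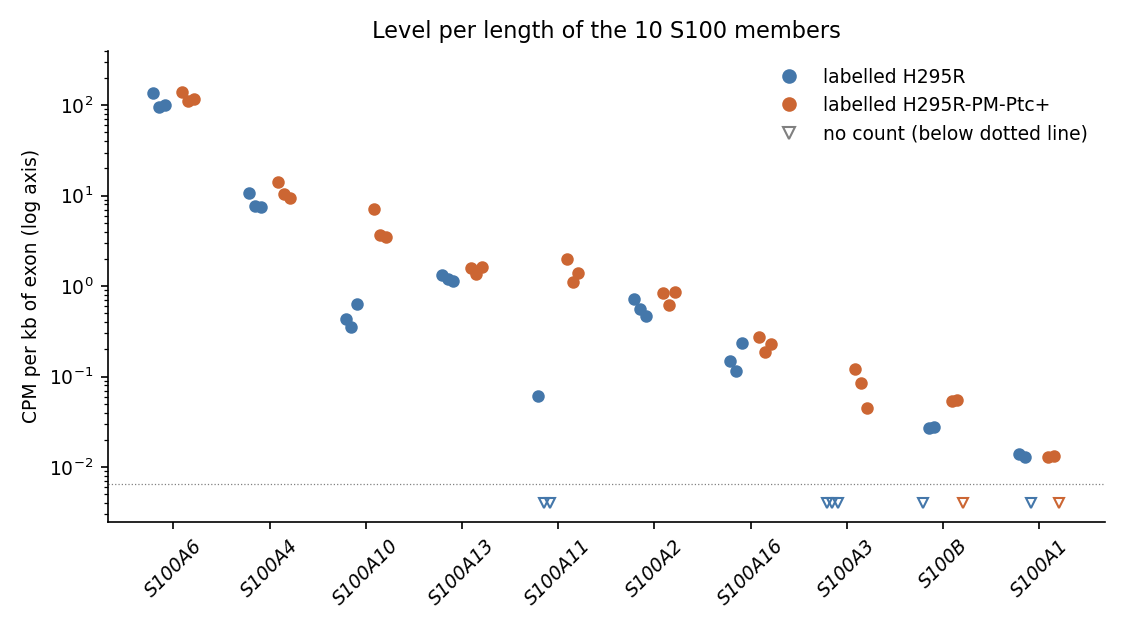
Level of each member in CPM per kb of exon on a log axis, 1 point per library, with blue for H295R-labelled libraries and orange for the H295R-PM-Ptc+-labelled ones, and open triangles for libraries with no count. S100A6 stands above 95 CPM per kb in every library. Among the members that passed the filter on low counts, S100A10 and S100A11 are those whose groups lie farthest apart on this axis.

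Of the 10 members, 6 passed the filter on low counts (edgeR's filterByExpr) and 4 did not. Among all 16710 genes tested, 2.42% were called higher and 1.32% lower in the H295R-PM-Ptc+-labelled libraries at an adjusted p under 0.05. Of the tested members, 2 were called higher, S100A10 and S100A11, and 0 were called lower by edgeR, DESeq2 or limma-voom. At an unadjusted p under 0.05 the count was also 2, the same genes. S100A11 passed the filter only through the group in which it was high, so this count is a description. All 3 libraries of one group lay above all 3 of the other for S100A10, S100A11 and S100A13, where 12.4% of the genes tested were separated in that direction.

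S100A10 encodes the light chain of the annexin A2 complex, which links the membrane to the actin cytoskeleton, carries ion channels to the cell surface and binds plasminogen there. Its gene at chr1:151982915-151994390, on the minus strand, had 16, 14 and 24 counts in the H295R-labelled libraries and 280, 140 and 126 in the H295R-PM-Ptc+-labelled ones. In CPM scaled by the trimmed mean of M-values (TMM) these were 0.67, 0.551 and 0.971 against 11, 5.63 and 5.44, or 0.731 ± 0.216 against 7.34 ± 3.13 (SD, n = 3 each). Every H295R-PM-Ptc+-labelled library lay above every H295R-labelled library, and library 1 stood highest by a wide margin. The log2 fold change was 3.33 (SE 0.356, 95% interval 2.52 to 4.13, adjusted p = 0.00146). Within pairs of libraries of the same number the ratio was 16.4, 10.2 and 5.61. S100A10 remained past the threshold in 13 of 13 alternative settings, with a log2 fold change between 2.91 and 3.57. An exact permutation test, two-sided, gave p = 0.1, the smallest that 3 against 3 allows.

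S100A11 encodes a protein that binds annexin A1 and takes part in membrane repair and in growth control of epithelial cells. Its gene, at chr1:152032506-152047907 on the minus strand, had 1, 0 and 0 counts in the H295R-labelled libraries and 35, 19 and 22 in the H295R-PM-Ptc+-labelled ones. It was thus at 1 count or none in the libraries of one group and low but measured in each library of the other, at 1.37, 0.764 and 0.95 CPM. Set against a floor of 3 counts per library, S100A11 was at least 8.45-fold higher in the H295R-PM-Ptc+-labelled libraries, and at least 7.05-fold higher without library 1 of that group. The floor covers counting error only. The fitted log2 fold change of 5.80 (SE 0.665, adjusted p = 0.00201) depends on how zeros are treated and is no bound, and without H295R library 1, the library with the single count, it was 7.68. The gene was tested because its counts were high in one group, and it was not tested where every library had to hold 10 counts. Its processed copies S100A11P1 and S100A11P2 had no count in any library.

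Because these are bulk libraries, more RNA of a gene per cell and more cells that express it cannot be told apart. Genes listed as markers of epithelial cells and fibroblasts moved with S100A10 and S100A11. The lists were chosen with earlier results of these data known, so their counts of calls are a description. Of 7 epithelial markers, 5 were tested and all 5 were called higher in the H295R-PM-Ptc+-labelled libraries (4 by DESeq2, and 2.42% of all genes tested), with a summed level of 14.8 to 16 CPM against 5.11 to 6.77 CPM and KRT19 at 0 in every library. Of 7 fibroblast markers, 3 were tested and COL3A1 and THY1 were higher, with a summed level of 75.5 to 79.8 against 31.3 to 34.2 CPM and LUM at 0. Summed levels of the melanocytic markers (16.9 to 17.9 against 13.9 to 14.4 CPM) and endothelial markers (0.509 to 0.648 against 0.197 to 0.335 CPM) were also higher there. Of the melanocytic markers 3 were tested, with 0 called by edgeR and 1 called higher with the replicate block, and 0 endothelial markers were tested. The part of these markers in the S100A10 and S100A11 differences was not tested. Of the 11 tested adrenocortical markers 1 was called higher and 0 lower (2.42% and 1.32% of all genes), CYP21A2, which has a near-identical pseudogene. Of 8 Schwann and glial markers, 4 were tested and 0 were called by edgeR, with 1 at an unadjusted p under 0.05 and 0 by DESeq2 or limma-voom. With the replicate block 1 of these markers was called higher and 0 lower, beside 12.1% and 10.4% of all genes. The summed level of the Schwann and glial markers, in the same order of groups, was 50.2 to 59.3 against 59.4 to 63.0 CPM, and SOX10 was at 0. Myeloid markers summed to 1.17 to 1.53 against 1.25 to 1.5 CPM, with S100A8 and PTPRC at 0.

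**Figure D2:**
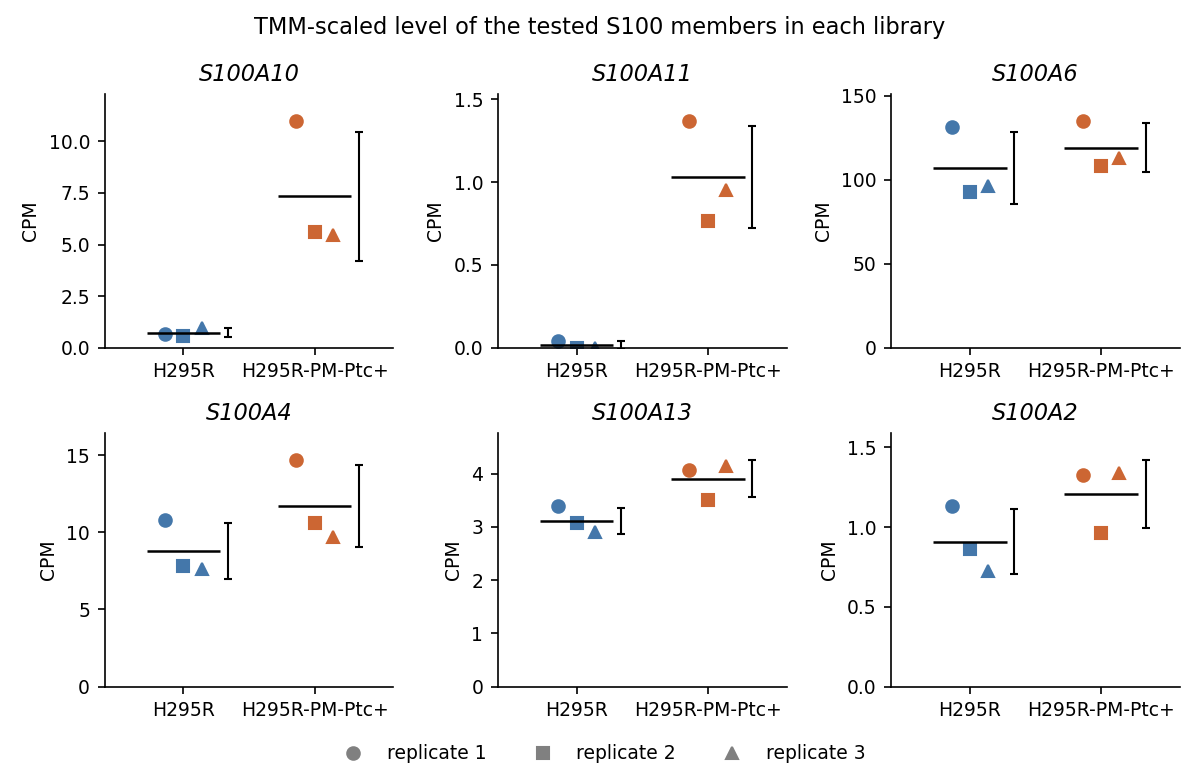
TMM-scaled CPM of the 6 tested members in each library by labelled group, with symbols for the replicate number, a line at the mean and a bar of 1 SD on either side. S100A10 and S100A11 are separated widely between the groups, and S100A4 and S100A6 are highest in replicate 1 of both.

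S100A6, or calcyclin, binds the ubiquitin ligase adaptor CACYBP and annexins and is made by many proliferating cells. The gene, at chr1:153534599-153536244 on the minus strand, had 3137, 2351 and 2383 counts in the H295R-labelled libraries and 3453, 2679 and 2622 in the others. The groups overlapped at 131, 92.6 and 96.4 against 135, 108 and 113 CPM, and replicate 1 was the highest in each. The log2 fold change of 0.15 (95% interval -0.17 to 0.48, adjusted p = 0.661) was within the spread between libraries.

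S100A4 binds non-muscle myosin and is known as a marker of motile and metastatic cells. The gene, at chr1:153543613-153550136 on the minus strand, had 259, 199 and 188 counts in the H295R-labelled libraries and 375, 264 and 225 in the H295R-PM-Ptc+-labelled ones, or 10.8, 7.83 and 7.61 against 14.7, 10.6 and 9.72 CPM. Replicate 1 was again the highest in both groups, and the groups overlapped. The log2 fold change was 0.42 (SE 0.191, 95% interval -0.02 to 0.85, adjusted p = 0.309).

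The numbers 1 to 3 paired the libraries across the groups, and the pairing moved the call of S100A4 and S100A6. With the replicate number as a block, 12.1% of genes were called higher and 10.4% lower, and 4 of the 6 tested members were called, S100A4, S100A6, S100A10 and S100A11, all higher. The blocked log2 fold change of S100A4 was 0.41 (SE 0.0906, adjusted p = 0.00374), and its ratio within pairs was 1.35, 1.36 and 1.28. That of S100A6 was 0.16 (SE 0.0493, adjusted p = 0.0266), with ratios of 1.03, 1.16 and 1.17. Of the adrenocortical markers 3 were called higher and 1 lower with the block. All 6 tested members were higher in each of the 3 pairs, where 26.9% of the genes tested were, which is given as a description.

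The difference between replicate 1 and the other replicates was itself measurable. In a contrast added after seeing the data, replicate 1 of both groups against replicates 2 and 3, 14.2% of the genes tested were called higher in replicate 1. Replicate 1 was picked from these same values, so the p-values of this contrast are a description. Of the tested members 3 were called, all higher in replicate 1. S100A10 had a log2 difference of 0.81 (SE 0.191, adjusted p = 0.00434), S100A4 one of 0.51 (SE 0.0932, adjusted p = 0.000605) and S100A6 one of 0.38 (SE 0.0514, adjusted p = 4.16e-05). Replicate 1 was the highest library of both groups for S100A4 and S100A6, but for S100A10 only of the H295R-PM-Ptc+-labelled ones, since H295R library 3 was the highest of its group. For S100A4 and S100A6 this replicate difference was of larger size than the log2 fold change between groups, which was 0.41 and 0.16 with the replicate block. What the number stands for beyond a library code is not given in the labels.

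**Figure D3:**
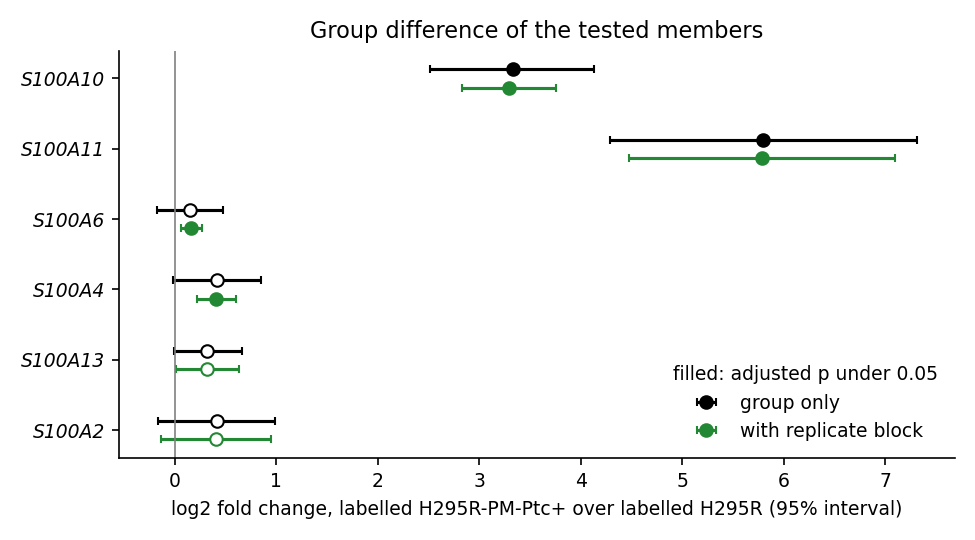
Log2 fold change of the 6 tested members, H295R-PM-Ptc+-labelled libraries over the H295R-labelled ones, with 95% intervals, from the fit on group only (black) and with a replicate block (green), filled where the adjusted p is under 0.05. S100A10 and S100A11 are filled in both fits, S100A4 and S100A6 with the block only, and S100A2 and S100A13 in neither.

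S100A13 is known for carrying growth factors without a signal peptide, such as FGF1, out of the cell. The gene, at chr1:153618787-153634092 on the minus strand, had 81, 78 and 72 counts in the H295R-labelled libraries and 104, 87 and 96 in the others, or 3.39, 3.07 and 2.91 against 4.07, 3.5 and 4.15 CPM. The groups did not overlap, but the gap was small beside the spread, with a log2 fold change of 0.32 (95% interval -0.01 to 0.66, adjusted p = 0.311, and 0.134 with the replicate block). The row shares 34.3% of its exon bases with RP1-178F15.5 and 13.4% with RP1-178F15.4 on the same strand, so part of its reads may not have been assigned, and its level is uncertain.

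S100A2 is a nuclear member known from the basal layer of stratified epithelia as a target of p53 family factors. The gene, at chr1:153561108-153567890 on the minus strand, had 27, 22 and 18 counts in the H295R-labelled libraries and 34, 24 and 31 in the others. The groups overlapped, and the log2 fold change was 0.42 (95% interval -0.16 to 0.99, adjusted p = 0.462). That interval holds no change as well as increases of up to 0.99, so with 3 libraries per group a change in S100A2 was not settled.

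The other 4 members were too low to test. S100A16, a broadly expressed member, had 6, 5 and 10 counts in the H295R-labelled libraries and 12, 8 and 9 in the H295R-PM-Ptc+-labelled ones, at chr1:153606886-153613145 on the minus strand. S100A3, known from the hair cuticle, had 0, 0 and 0 against 3, 2 and 1 counts at chr1:153547329-153549372 on the minus strand, inside the span of S100A4 with no shared exon base. All of these S100A3 counts were at or under the floor of 3, so no fold is given. S100A1, which acts on calcium handling in heart muscle, had 1, 1 and 0 counts in both groups, at chr1:153627926-153632039 on the plus strand. S100B, the glial and melanocytic member, had 0, 1 and 1 against 2, 2 and 0 counts at chr21:46598962-46605208 on the minus strand. In a fit with no filter on low counts their adjusted p was 0.699 for S100A16, 0.278 for S100A3, 1.0 for S100A1 and 0.812 for S100B, and for these genes a difference was not detectable at this depth. The floor of 3 counts corresponded to 0.117 to 0.13 CPM, depending on the library.

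Of the remaining 11 S100 genes none passed the filter, 6 of them (S100A7, S100A7A, S100A7L2, S100A8, S100A12 and S100Z) had no count in any library, and S100A5, S100A9, S100A14, S100P and S100G had at most 3 counts in a library. These include the calgranulins S100A8, S100A9 and S100A12 of neutrophils and monocytes. Of 7 fused-type S100 genes, the large filaggrin-like proteins of the epidermis that carry an S100 domain, none passed the filter and 6 had no count.

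The neighbours of the cluster on 1q21 were read beside the share of all genes called. The 9 members on chromosome 1 lie between chr1:151982915 and chr1:153634092, a span of 1651 kb, with S100A10 and S100A11 at one end and the other 7 at the far end. Of 56 tested genes that are no S100 genes and lie within the span or within 1000000 bases of it, 1 was called higher and 1 lower, with a median log2 fold change of 0.0. Both lie on the S100A10 side outside the span. CGN, the tight junction protein cingulin, was at 3.99 ± 0.96 CPM in the H295R-labelled libraries and 7.37 ± 0.594 in the others (SD, n = 3 each), and its log2 fold change was 0.88 (adjusted p = 0.0348). SELENBP1, a selenium-binding methanethiol oxidase, was at 9.31 ± 0.923 and 5.44 ± 0.946 CPM, a log2 fold change of -0.77 (adjusted p = 0.0276). Neither call was made without H295R library 2, H295R library 3, H295R-PM-Ptc+ library 2 or H295R-PM-Ptc+ library 3, and 1 of the 56 was called without H295R-PM-Ptc+ library 1. These counts stand beside 2.42% and 1.32% of all genes tested. With the replicate block 10 of the 56 were called, beside 12.1% of all genes called higher and 10.4% lower. Of the 5 tested genes inside the span 0 were called, with 0 at an unadjusted p under 0.05 in edgeR and 0 in DESeq2 or limma-voom. FLG-AS1, the nearest of them to S100A11, stood at 0.64 on the log2 scale (adjusted p = 0.297), and CHTOP, a chromatin factor that crosses the far edge, one of -0.03 (adjusted p = 0.881). FLG-AS1 and CHTOP were picked for their place after their values were seen.

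**Figure D4:**
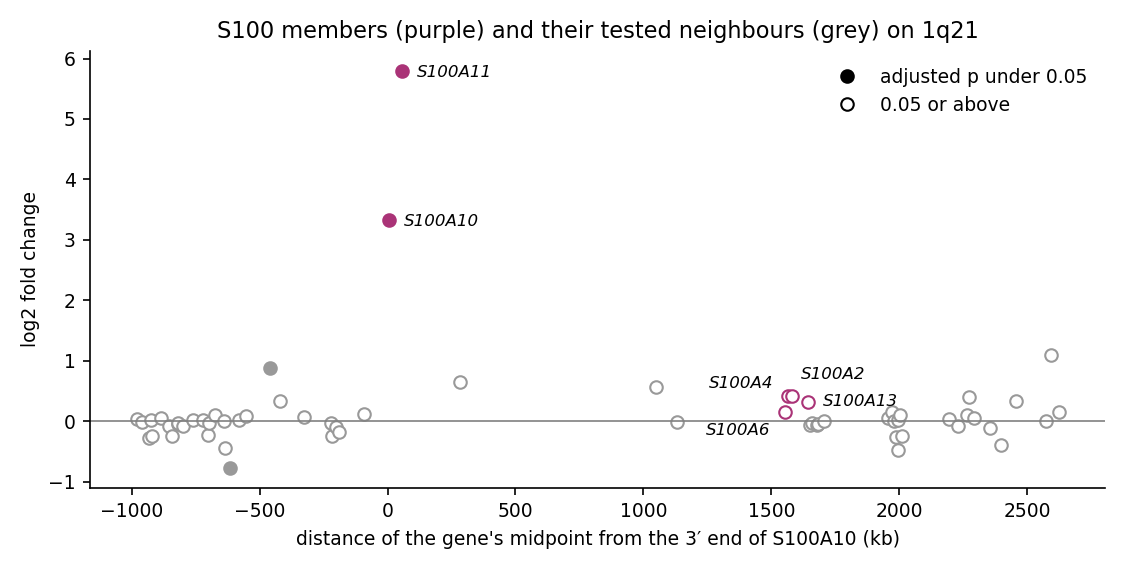
Log2 fold change, H295R-PM-Ptc+-labelled libraries over the H295R-labelled ones, of the 6 tested S100 members (purple) and the 56 tested neighbours (grey) against the distance of each gene's midpoint in kb from the 3′ end of S100A10, filled where the adjusted p is under 0.05. S100A10 and S100A11 stand above every neighbour, and the 4 members at the far end lie between 0.15 and 0.42.

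Promoters of the members were read from RefSeq on GRCh38.p14, the 250 bases before each transcription start, on both strands. The table matched 9 of the 10 members, with 13 starts, and did not match S100B. The GC box GGGCGG, found in 42.6% of all 35116 promoters, was present before S100A10 at position -167, before S100A11 at -68 and before S100A6 at -90, -79 and -75. S100A3, S100A13 and S100A16 also held it. The TATA box TATAAA, found in 10.7% of promoters, was present before S100A4 at -31 and before S100A13 at -29. The AP-1 motif TGANTCA, in 6.57% of promoters, was found for S100A2 at -52 and S100A3 at -225. The Hedgehog effector motif GACCACCCA of the GLI factors, in 0.199% of promoters, and the steroidogenic factor motif AAGGTCA, in 3.44%, were found before none of the 9 matched members. S100A10 and S100A11 thus shared the GC box, which is common to many promoters, and no other letters that were searched.

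The proteins that S100 members hold were examined next. Annexins bind membranes when calcium rises, and several carry an S100 dimer as a bridge between membrane sheets. Of 13 annexins listed, 7 were tested, 3 were called higher and 0 lower in the H295R-PM-Ptc+-labelled libraries, beside 2.42% and 1.32% of all genes tested, with 4 at an unadjusted p under 0.05 and a median log2 fold change of 0.06, where all genes tested had 0.0. DESeq2 called 3 higher and 1 lower, as did the replicate block (beside 12.1% and 10.4% of all genes), the lower one being ANXA6 at a log2 fold change of -0.29, and limma-voom called 3 higher and 0 lower. ANXA2, the partner of S100A10, had 86, 74 and 60 counts in the H295R-labelled libraries and 273, 215 and 192 in the others, with no overlap. Its log2 fold change was 1.63 (SE 0.175, 3.09-fold, adjusted p = 0.00147). ANXA1, the partner of S100A11, had 177, 182 and 182 against 1128, 675 and 627 counts, a log2 fold change of 2.17 (SE 0.195, adjusted p = 0.000778). ANXA11, which S100A6 can bind, had 495, 527 and 504 against 867, 780 and 812 counts and a log2 fold change of 0.70 (SE 0.0782, adjusted p = 0.00177).

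The balance of ANXA2 and S100A10, which form a complex of equal parts, is given as a description, with no test. The ratio of their levels per length was 0.94, 0.924 and 0.437 in the H295R-labelled libraries and 0.17, 0.269 and 0.266 in the H295R-PM-Ptc+-labelled ones. The ratios of the groups did not overlap, and those of the first 2 H295R-labelled libraries rest on 16 and 14 counts of S100A10. Both lengths are those of all annotated exons joined, which differ from the transcripts in use, so the ratio is read between libraries rather than as a ratio of molecules. Of the processed copies of ANXA2, which could draw its reads, ANXA2P2 had 0, 1 and 1 against 2, 4 and 5 counts and the other 2 had none.

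The other binding partners and receptors form a separate list. Of 33 listed, 27 were tested and 0 were called by edgeR, with 3 at an unadjusted p under 0.05, and KCNK3, a potassium channel that S100A10 helps to bring to the membrane, was called higher by DESeq2 and by limma-voom, the 1 such call of each. With the replicate block 6 were called higher and 3 lower. Over all genes tested the shares were 2.42% higher and 1.32% lower, and 12.1% and 10.4% with the block. The median log2 fold change of the 27 was 0.03. CACYBP, the partner of S100A6, had 2862, 3671 and 3237 counts in the H295R-labelled libraries and 3488, 3309 and 3042 in the others, a log2 fold change of 0.02 (95% interval -0.17 to 0.21, adjusted p = 0.939). AHNAK, a giant scaffold protein bound by the S100A10 and annexin A2 complex, had 392, 1024 and 792 against 651, 1107 and 1218 counts, with a log2 fold change of 0.46 (95% interval -0.28 to 1.2, adjusted p = 0.534). It was lowest in replicate 1 of both groups, and was called higher with the replicate block (adjusted p = 0.000881).

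Calcium-binding genes outside the family were read in the same way. Of 44 other EF-hand genes listed, such as the calmodulins, calbindins and reticulocalbins, 34 were tested, 0 were called higher and 1 lower, beside 2.42% and 1.32% of all genes, with 8 at an unadjusted p under 0.05 and a median log2 fold change of -0.01. DESeq2 called 1 higher and 2 lower, limma-voom 0 higher and 1 lower, and the replicate block 6 higher and 8 lower, again beside 12.1% and 10.4% of all genes. RCN2, a reticulocalbin of the secretory pathway, was the gene called, at a log2 fold change of -0.35 (SE 0.0711, adjusted p = 0.0331).

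**Figure D5:**
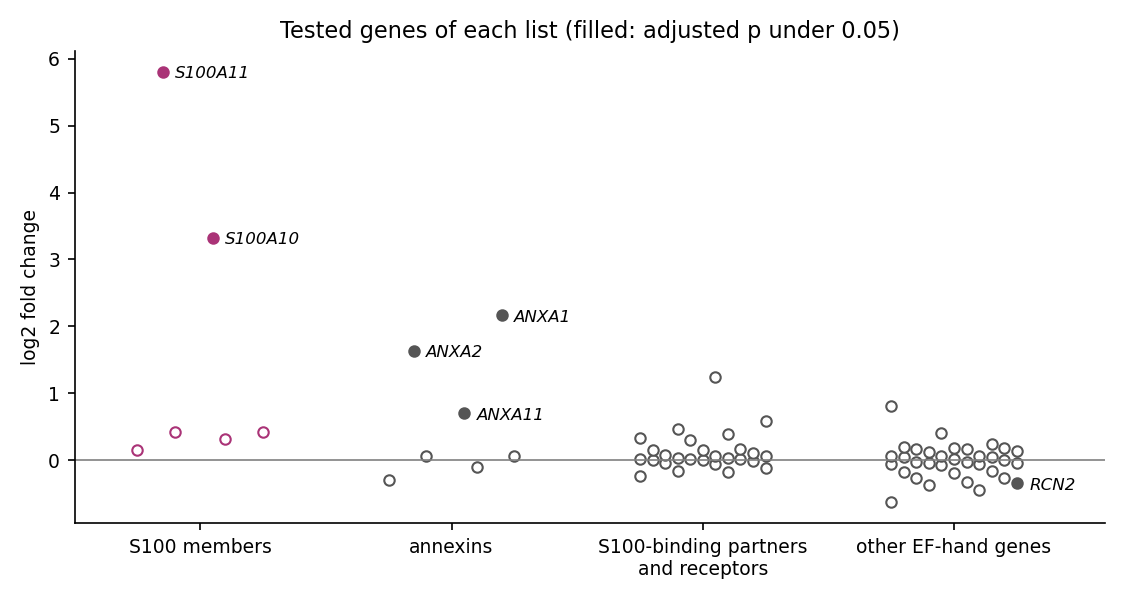
Log2 fold change, H295R-PM-Ptc+-labelled libraries over the H295R-labelled ones, of the tested genes of 4 lists, 1 point per gene, filled and named where the adjusted p is under 0.05. S100A10, S100A11, ANXA1, ANXA2 and ANXA11 lie above 0 and RCN2 at -0.35, and no S100-binding partner or receptor outside the annexins is filled.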

How the data were processed

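The authors sequenced 6 libraries (paired ends) and deposited 1 table of raw featureCounts counts per gene, from reads aligned with STAR to GRCh38. The submitters' processing notes give STAR 2.4.0a and Subread 1.5.0-p3. The labels name a Truseq Stranded Total RNA kit and polyA RNA, the paper a stranded mRNA kit. In 547 of 584 pairs of a gene and its -AS1 partner the gene held more counts, so the strand was read as counted correctly.

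From the counts as deposited, edgeR 4.0.16 (R 4.3.3) was run on all 16710 genes that passed filterByExpr (minimum count 10), with TMM factors, a group term, the two-sided quasi-likelihood F-test and Benjamini-Hochberg adjustment over all of them. A call is an adjusted p under 0.05. Alternatives were DESeq2 1.42.0, limma-voom (limma 3.58.1), RLE factors, library totals, no filter, at least 10 counts in every library, a test against a 1.2-fold change, each library left out, and a replicate block. Same-numbered libraries had deviations from their group means that correlated at 0.497, 0.307 and 0.228, against -0.352 to 0.15 for other pairs, so the numbers were taken as pairs. The scripts were tested on simulated data.

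The members, lists and markers were chosen with earlier results of these data known. Named are all 10 members, called genes of each list (at most 6, or 5 for the 1q21 neighbours, by p) and ANXA2, ANXA1, CACYBP and AHNAK. Other genes given beside a count of calls (KCNK3, ANXA6, RCN2, COL3A1, THY1, CYP21A2) were picked after their values were seen. Rows that pool several loci under 1 name were left out of the 1q21 neighbours, as was 1 nameless row from the table. Marker lists were also made for melanocytic cells (13.9 to 14.4 CPM in the libraries labelled H295R against 16.9 to 17.9 in the others, MLANA at 0) and endothelial cells (0.197 to 0.335 against 0.509 to 0.648, CLDN5 at 0). A further marker list is not reported here.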

Additional observations from a re-analysis of the deposited data

How the results depend on the processing

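The number of S100 members called was 2, 1 where every library had to hold 10 counts (which leaves S100A11 out of the test), and 4 with the replicate block. It was 2 under every other alternative, leaving out each library included. The number of 1q21 neighbours called was 2, 10 with the replicate block, and 0 to 2 with a library left out. No direction was reversed among the 6 tested members or for PTCH1, and the other 4 members were not run under the alternatives other than the fit with no filter. S100A10 ranged from 2.91 to 3.57 on the log2 scale with an adjusted p of at most 0.0132, and S100A2 and S100A13 passed the threshold in 0 of 13 alternatives. S100A4 passed it in 1 of 13 and S100A6 in 1 of 13, the replicate block. Other scalings moved the median log2 fold change of all genes from 0.001 to between -0.001 and 0.016. The replicate 1 contrast, added after seeing the data, called 3 members under each of the 4 other settings tried. The depth limits the untested members S100A1, S100A3, S100A16 and S100B.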
